A study of Mus musculus with 18 samples.

Results

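The Fos and Jun genes encode the core subunits of the transcription factor AP-1. The 7 members, Fos, Fosb, Fosl1, Fosl2, Jun, Junb and Jund, were taken by gene name from the deposited table of read counts, which held 37310 genes, and each name matched 1 row. They were read in 12 libraries of RNA from mouse cortical neurons in culture, in 4 groups of 3. The neurons were wildtype (WT) or carried a knockout of Fmr1 (KO), which encodes FMRP, an RNA-binding protein whose loss causes fragile X syndrome in people. All groups had grown for 7 days in vitro and then received either DMSO, the vehicle, or JQ1 for 24 h. JQ1 is a small molecule that displaces BET bromodomain proteins from acetylated chromatin. The 6 libraries treated with THZ1 were not analysed here. The labels name neither the strain nor the knockout allele used. They do not say whether libraries of a group came from separate cultures or animals. P-values thus measure the spread between these libraries, which may be technical. Replicate 3 of KO, however, differed from the other KO libraries in Xist and Ddx3y in both treatments, as given below.

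AP-1 is a dimer of basic leucine zipper (bZIP) proteins. Jun proteins can pair with themselves or with Fos proteins, whereas Fos proteins need a Jun partner to bind DNA. In neurons Fos, Fosb and Junb are known as immediate early genes, switched on briefly by synaptic activity through calcium and MAP kinase signals, while Jund is known for a steady basal level. Jun is phosphorylated by JNK kinases and takes part in the response of neurons to injury, and Fosl1 and Fosl2 encode the Fos-related antigens FRA1 and FRA2.

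The promoters of 6 of the 7 genes were found in a RefSeq table (build GRCm38.p6). Each window holds 250 bases before and 50 after the annotated start. The windows of Fosl2, Jun and Fos, which are among the members with calls described below, are shown. Jund and Junb also had calls under JQ1, and their windows are not shown. Fosl2 lies at chr5:32136222-32136521 on the plus strand, Jun at chr4:95052173-95052472 on the minus strand and Fos at chr12:85473640-85473939 on the plus strand. Capitals mark TGACG (the CRE half-site), TGANNTCA (an 8-base site like those bound by Jun with ATF2) and TATAAA (the TATA box), searched on both strands.
Fosl2: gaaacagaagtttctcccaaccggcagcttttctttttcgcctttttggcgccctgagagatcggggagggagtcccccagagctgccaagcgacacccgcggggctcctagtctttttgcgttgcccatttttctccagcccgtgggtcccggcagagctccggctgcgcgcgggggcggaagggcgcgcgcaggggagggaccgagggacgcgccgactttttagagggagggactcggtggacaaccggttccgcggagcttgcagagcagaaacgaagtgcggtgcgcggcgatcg
Jun: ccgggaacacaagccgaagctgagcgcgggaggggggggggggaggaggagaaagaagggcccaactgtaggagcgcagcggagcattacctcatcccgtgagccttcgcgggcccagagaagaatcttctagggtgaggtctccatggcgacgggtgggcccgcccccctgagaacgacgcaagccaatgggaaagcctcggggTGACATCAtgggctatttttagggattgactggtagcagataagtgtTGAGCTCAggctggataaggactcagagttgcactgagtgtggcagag
Fos: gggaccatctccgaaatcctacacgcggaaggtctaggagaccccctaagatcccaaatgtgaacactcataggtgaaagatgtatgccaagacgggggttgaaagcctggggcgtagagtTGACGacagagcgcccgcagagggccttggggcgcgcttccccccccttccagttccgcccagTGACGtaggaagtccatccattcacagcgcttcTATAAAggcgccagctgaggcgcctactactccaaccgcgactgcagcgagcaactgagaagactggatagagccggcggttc
The Fos window held TGACG at positions -129 and -66 and TATAAA at -33, counted from the start as 1. The Jun window held TGACATCA at -45 and TGAGCTCA at 3. The Fosl2 window held none of these motifs, and its 1 match was to GGGCGG (the GC box, left in lower case), at -75. The Fos and Jun windows held GGGCGG as well, at -74 and -89, on the opposite strand of each window. Of 32851 promoter windows of this length, 20.8% held TGACG, 14.1% TGANNTCA, 13.6% TATAAA and 35.7% GGGCGG, so these are common matches. No window of the 6 genes held the full CRE, TGACGTCA (1.79% of all windows), the AP-1 site TGANTCA (7.81%) or a CArG box (1.63%). These matches describe letters, not bound sites.

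Gene counts per library ran from 21643592 to 134110850, and 15433 genes had enough reads to be tested. Fmr1 was at 120.9 ± 2.89 CPM (read counts relative to library size after TMM scaling to the middle of all genes; mean ± SD, n = 3) in WT and 24.4 ± 4.39 in KO in DMSO, and its log2 change was -2.31 (adjusted p = 9.2e-08). All 9 neuronal markers exceeded 1 CPM in every group, with summed levels of 5690 to 6763 CPM. Replicate 3 of KO in DMSO and of KO in JQ1 stood apart in Xist (4.29 and 4.34 CPM, at least 230.5 in the other libraries) and in the Y-linked Ddx3y (54.5 and 76.2 CPM, at most 46.1 in the others). Scaling to ERCC spike-in RNA in place of TMM moved the median log2 change of all genes by -0.63 for JQ1 over DMSO in WT, 0.065 in KO, -0.81 for KO over WT in DMSO and -0.12 in JQ1. Changes below are therefore relative to the middle of all genes unless spike-ins are named.

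Jund, Fosl2 and Jun held nearly all AP-1 reads. Per kilobase of the longest coding transcript, WT neurons in DMSO held 66.9 ± 5.05 CPM of Jund, 25.4 ± 1.18 of Fosl2 and 22.9 ± 1.43 of Jun (mean ± SD, n = 3). Junb followed at 3.404 ± 0.596, Fos at 1.49 ± 0.144, Fosb at 0.0726 ± 0.0278 and Fosl1 at 0.0451 ± 0.0173. On this scale the libraries of Fosl2 and Jun overlapped in DMSO in both genotypes. In WT in DMSO those of Fosb and Fosl1 overlapped as well, and the other neighbours in the order did not. In JQ1 the order of Fosl2 and Jun was clear: WT neurons held 36.4 ± 2.71 CPM per kilobase of Jun and 14.9 ± 1.47 of Fosl2, with no overlap. The classical immediate early members Fos and Fosb thus stood far below Fosl2 in these cultures, and Fosl1 had 2 to 9 reads per library and was not tested. Of the 75-base stretches of Fosl1, 56.9% also occurred in the overlapping gene Ccdc85b.

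**Figure D1:**
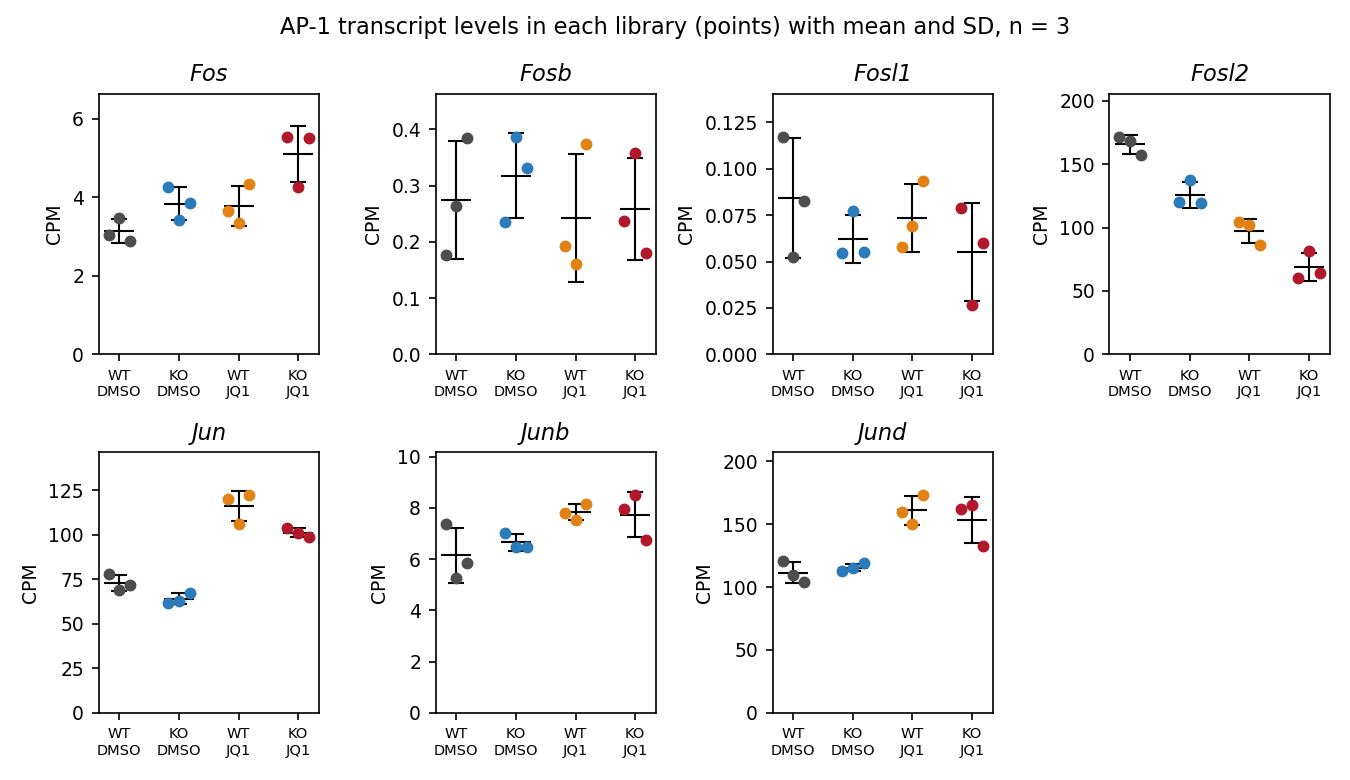
Level of each AP-1 gene in CPM (linear axes from 0, 1 scale per gene) in the 4 groups; points are the 3 libraries and bars the mean and SD. On this TMM scale Fosl2 is highest in WT DMSO (157.0 to 171.6 CPM) and lowest in KO JQ1 (60.31 to 81.24), while Jun is higher in both JQ1 groups; with spike-in scaling the rise of Jun in WT shrinks to a log2 change of 0.02.

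The comparison of JQ1 with DMSO asks how these genes respond when BET proteins are displaced. Fosl2 fell and Jun and Jund rose in both genotypes. Junb was called in WT only and Fos in KO only, but no difference between the genotypes' responses was called. The quasi-likelihood test of edgeR, adjusted by Benjamini-Hochberg over all 15433 genes, called 3 of the 6 tested members higher and 1 lower in WT at an adjusted p under 0.05, beside 25.9% and 29.3% of all genes (55.1% in either direction). In KO 3 were higher and 1 lower, beside 27.7% and 29.4% (57.1%). Calls were this common among all genes, so the members' counts are near the background.

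Fosl2, the gene of FRA2, was at 171.6, 168.6 and 157.0 CPM in WT libraries in DMSO and at 104.1, 102.0 and 86.53 CPM in JQ1. In KO it was at 120.4, 137.6 and 119.4 CPM in DMSO and at 60.31, 81.24 and 64.23 CPM in JQ1. Every JQ1 library lay below every DMSO library of its genotype. Such a separation, in either direction, held for 62.6% of all genes in WT and 60.7% in KO, shares that apply to each member below. The log2 change was -0.76 in WT (SE 0.0987, adjusted p = 1.83e-05), or 0.591 times the DMSO level, and -0.87 in KO (SE 0.0992, adjusted p = 5.21e-06), or 0.547 times. Fosl2 stayed lower with spike-in scaling, at -1.39 in WT (adjusted p = 9.37e-05) and -0.83 in KO, where the call was lost (adjusted p = 0.066).

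Markers of some other cell types were lower in JQ1 as well, while those of progenitors were not. The summed level of 6 astrocyte markers ran from 510.3 to 619.5 CPM for WT in DMSO and from 365.1 to 483.4 for WT in JQ1. In KO it ran from 348.7 to 483.2 CPM in DMSO and from 210.2 to 364.7 in JQ1. By group means, 6 of 6 markers exceeded 1 CPM in DMSO and 5 of 6, all but S100b, in JQ1 in both genotypes. The 8 markers of fibroblasts and vessels summed to 26.86 to 34.84, 11.88 to 15.79, 15.4 to 20.33 and 8.257 to 10.72 CPM for WT and KO in DMSO and WT and KO in JQ1. Dcn alone of these exceeded 1 CPM in the group means, while Col3a1 and Pecam1 reached 1.326 and 1.348 CPM in single libraries. The endothelial markers Cdh5 and Cldn5 were near 0, at most 0.0773 and 0.0961 CPM in any library. Microglial markers summed to 9.868 to 10.99 CPM for WT in DMSO and 6.726 to 7.824 in JQ1, and to 10.2 to 13.19 and 7.719 to 9.471 in KO, and 4 of 7 in WT and 5 of 7 in KO were called lower under JQ1. Of 7 markers of the oligodendrocyte lineage 3 were called lower in each genotype and 1 higher in WT, while their sums overlapped between DMSO (140.8 to 208.5 CPM) and JQ1 (144.1 to 197.3). The part of these cells in the result was not tested, and in bulk RNA fewer cells of a type and less RNA per cell cannot be told apart.

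Jun, the gene of the JNK substrate c-Jun, was at 77.81, 68.84 and 71.94 CPM in WT libraries in DMSO and at 120.1, 106.3 and 122.2 CPM in JQ1. In KO it was at 61.71, 63.03 and 67.53 CPM in DMSO and at 104.0, 101.3 and 98.56 CPM in JQ1. The treated libraries were all higher, with no overlap in either genotype. Jun rose by a log2 change of 0.67 in WT (SE 0.0609, adjusted p = 7.03e-07) and 0.66 in KO (SE 0.0605, adjusted p = 6.71e-07), but with spike-in scaling the values were 0.02 (adjusted p = 0.945) and 0.72 (adjusted p = 0.14). Of its 75-base stretches 5.07% also occurred in the antisense gene Junos.

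Jund, the basally expressed Jun gene, was at 120.7, 109.8 and 104.1 CPM in WT libraries in DMSO and at 159.7, 150.4 and 172.9 CPM in JQ1. In KO it was at 112.8, 115.0 and 118.9 CPM in DMSO and at 162.1, 165.2 and 132.6 CPM in JQ1. Again every JQ1 library lay above every DMSO library of its genotype, the lowest being replicate 3 of KO. The log2 change of Jund was 0.53 in WT (SE 0.0797, adjusted p = 7.12e-05) and 0.41 in KO (SE 0.0791, adjusted p = 0.00053), but -0.13 in WT and 0.46 in KO with spike-in scaling, neither called. In GENCODE M21, 45.9% of the 75-base stretches of Jund, the read length per the labels, also occurred in the antisense gene Gm11175, which had 0 reads in all libraries. No source used here states the strandedness of the counting, so reads of Jund and an antisense transcript could not be separated.

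Junb, an immediate early gene whose protein often opposes c-Jun, was at 7.353, 5.263 and 5.857 CPM in WT libraries in DMSO and at 7.805, 7.526 and 8.167 CPM in JQ1. In KO it was at 7.032, 6.466 and 6.46 CPM in DMSO and at 7.967, 8.487 and 6.758 CPM in JQ1. The groups did not overlap in WT and overlapped in KO. The log2 change of Junb was 0.34 in WT (SE 0.116, adjusted p = 0.0219) and 0.23 in KO (95% confidence interval -0.01 to 0.47, adjusted p = 0.0907), against -0.30 and 0.29 with spike-in scaling. The call in WT was lost without replicate 2 (adjusted p = 0.114) or 3 (adjusted p = 0.0598) of WT in DMSO, and Junb was called in KO without replicate 3 of KO in JQ1 (adjusted p = 0.0329).

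Fos, the prototype of the activity-induced genes, was low in all groups. It was at 3.047, 3.474 and 2.887 CPM in WT libraries in DMSO and at 3.653, 3.359 and 4.34 CPM in JQ1. In KO it was at 4.252, 3.418 and 3.847 CPM in DMSO and at 5.54, 4.276 and 5.502 CPM in JQ1. The JQ1 and DMSO libraries overlapped in WT and were separated by a narrow gap in KO. The log2 change of Fos was 0.23 in WT (95% confidence interval -0.08 to 0.53, adjusted p = 0.193) and 0.40 in KO (SE 0.13, adjusted p = 0.0178), against -0.39 and 0.51 with spike-in scaling, neither called. The KO call was lost without replicate 2 of KO in DMSO (adjusted p = 0.0849), without replicate 1 (0.0618) or 3 (0.0626) of KO in JQ1, and without both KO replicate 3 libraries (0.102).

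Fosb, whose long-lived splice product ΔFosB is known from chronic stimulation, ran from 0.1614 to 0.3867 CPM over the 12 libraries (6 to 27 reads). Its log2 change was -0.47 in WT (95% confidence interval -1.34 to 0.40) and -0.20 in KO (-0.94 to 0.55), and these wide intervals left changes of either direction undetectable at this depth.

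**Figure D2:**
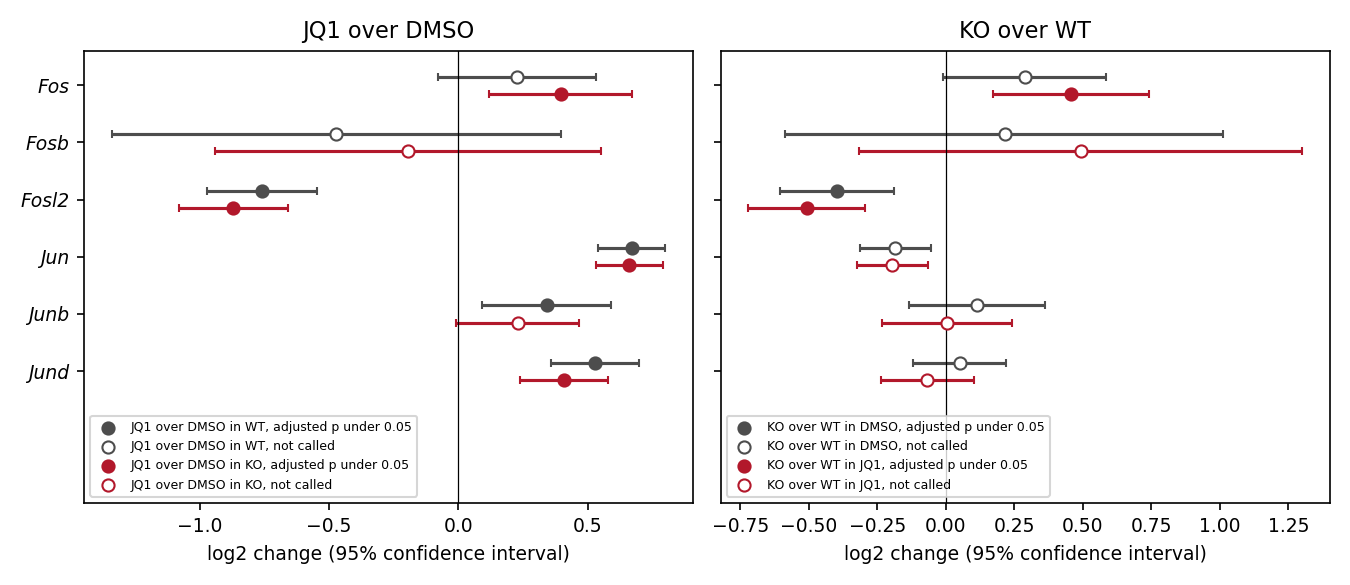
TMM-scaled log2 change with its 95% confidence interval for the 6 tested genes, JQ1 over DMSO (left; grey WT, red KO) and KO over WT (right; grey in DMSO, red in JQ1), filled where the adjusted p was under 0.05; the horizontal scales of the panels differ. Fosl2 lies left of 0 in all 4 comparisons and Jun right of 0 under JQ1; with spike-in scaling Fosl2 keeps its side, and the JQ1 values of Fos, Junb and Jund in WT turn negative.

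On the TMM scale Fosl2 changed in the opposite direction to Jun and Jund. With spike-in scaling in WT, Fosl2 was at -1.39, Jun at 0.02 and Jund at -0.13. The balance of the families can be read within a library without any scaling between libraries. The ratio of summed Fos family reads to summed Jun family reads was 0.850, 0.937 and 0.881 in WT libraries in DMSO and 0.376, 0.400 and 0.301 in JQ1. In KO it was 0.689, 0.767 and 0.641 in DMSO and 0.241, 0.312 and 0.294 in JQ1. All JQ1 libraries lay below all DMSO libraries, and KO lay below WT in DMSO, while the genotypes overlapped in JQ1. The log2 ratio was lower by 1.31 on average in JQ1 (difference -1.31, exact permutation test within genotype, two-sided, p = 0.005, the smallest that its 400 arrangements allow). This ratio was tested once by treatment and once by genotype, and the further p-values given for it come from alternatives and are not adjusted.

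Because these are read counts, the ratio was set mostly by Fosl2, which gave 91.15% to 98.09% of Fos family reads. Fosl2 held 46.1% ± 1.15 of all AP-1 reads for WT in DMSO and 25.3% ± 2.97 in JQ1 (SD, n = 3), and 39.8% ± 2.27 and 20.4% ± 2.43 in KO. Jun went from 20.3% ± 0.864 to 30.0% ± 1.15 in WT and from 20.3% ± 1.01 to 30.2% ± 1.997 in KO. Jund held the largest share in both JQ1 groups, 41.6% ± 1.92 in WT and 45.5% ± 2.31 in KO. Taking Fos and Fosb against Jun and Junb, the log2 ratio was also lower in JQ1, by a difference of -0.34 (exact permutation p = 0.005). That does not mean that Fos fell. Its TMM-scaled log2 change was 0.23 in WT and 0.40 in KO, while Jun rose by 0.67 and 0.66.

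**Figure D3:**
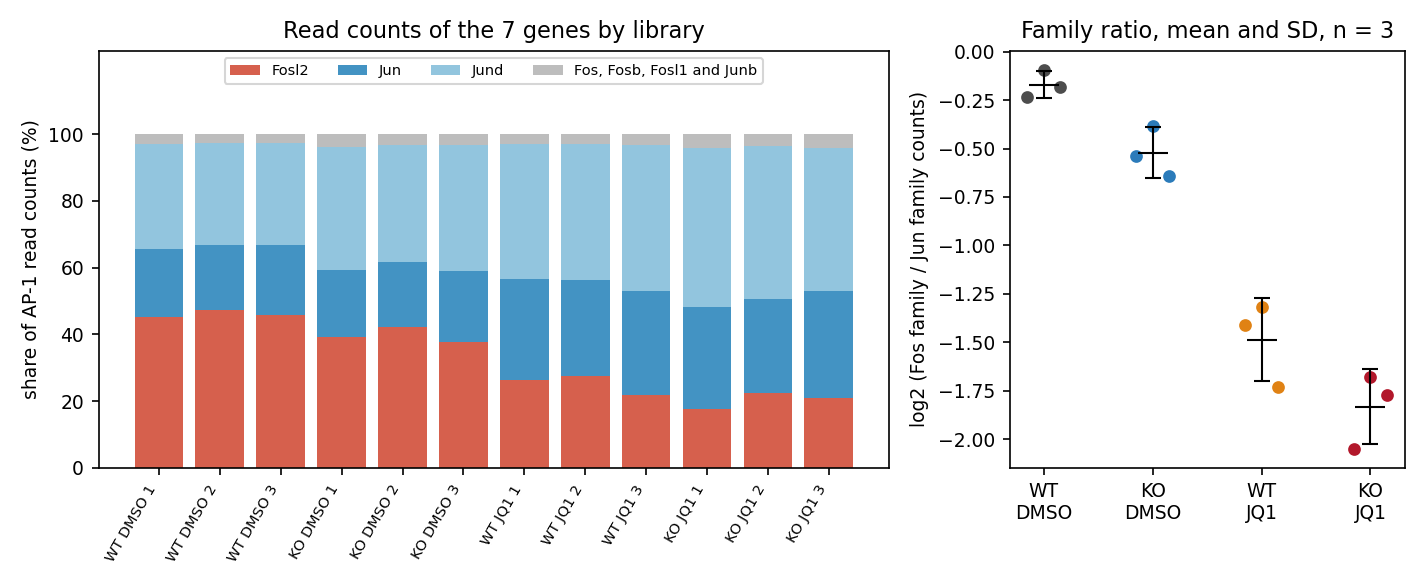
Left, share of AP-1 read counts (%) per library for Fosl2, Jun, Jund and the 4 remaining genes together; right, log2 ratio of Fos family to Jun family counts, with points for libraries and bars for mean and SD. The Fosl2 share drops from about 46.1% in WT DMSO to 20.4% in KO JQ1, and the mean log2 ratio from -0.17 to -1.83.

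The comparison of KO with WT asks which members differ when FMRP is missing. Fosl2 was lower in KO in both treatments. In DMSO it was the 1 member of 6 called, 1 lower and 0 higher beside 7.76% and 7.21% of all genes (15.0% in either direction), and it changed by -0.40 on the log2 scale (SE 0.0977, adjusted p = 0.0167). In JQ1 the change was -0.51 (SE 0.0995, adjusted p = 0.00804), and 2 of 6 members were called, 1 lower and 1 higher beside 4.13% and 4.84% of all genes (8.97%). The KO libraries given above lay below all WT libraries in both treatments (groups did not overlap for 37.6% of all genes in DMSO and 27.0% in JQ1). With spike-in scaling Fosl2 was lower as well, at -1.19 in DMSO (adjusted p = 0.00495) and -0.63 in JQ1 (adjusted p = 1). The DMSO call depended on single libraries: it was lost without replicate 1 (adjusted p = 0.0595) or 2 (0.0572) of WT and without replicate 1 (0.0904) or 3 (0.0516) of KO, with log2 changes from -0.38 to -0.34.

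Cell type markers moved with genotype as well. Of 9 neuronal markers 4 were called higher in KO in DMSO and 1 in JQ1, with sums of 5870 to 5958 CPM in WT and 6173 to 6763 in KO in DMSO, and 5690 to 5865 and 6014 to 6283 in JQ1. Of 7 progenitor markers 1 was called lower in KO in DMSO and 3 in JQ1, with medians of -0.38 and -0.39 on the log2 scale and sums of 207.4 to 234.9 CPM in WT and 173.7 to 212.6 in KO in DMSO, and 246.8 to 307.8 and 173.8 to 227.9 in JQ1. Of 6 astrocyte markers 1 was called lower in DMSO and 0 in JQ1. Of 6 tested markers of fibroblasts and vessels 1 was called higher and 2 lower in DMSO, and 0 and 1 in JQ1. Their median log2 changes were 0.42 and 0.51, although the sums given above, set mostly by Dcn, were lower in KO. In DMSO Dcn averaged 27.98 CPM in WT and 10.89 in KO. Col1a1, Col1a2 and Col3a1 went the other way, with group means below 1 CPM. The part of these cells in the genotype values was not tested.

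Jun was lower in every KO library than in every WT library of the same treatment, but by a small amount that missed the threshold. Such a separation, in either direction, held for 37.6% of all genes in DMSO and 27.0% in JQ1. Its log2 change was -0.18 in DMSO (95% confidence interval -0.32 to -0.05, adjusted p = 0.055) and -0.20 in JQ1 (-0.32 to -0.07, adjusted p = 0.0558). DESeq2 called it in both (adjusted p = 0.0436 and 0.029), as did edgeR with a replicate block (0.04 and 0.0392). That block ties equal replicate numbers of WT and KO together, a pairing that these data did not show. edgeR also called Jun in DMSO without replicate 3 of KO (0.0486) or both KO replicate 3 libraries (0.0341), and in JQ1 without replicate 2 of WT (0.0305) or without the filter on low counts (0.0447). Leaving out any other single library of the groups compared gave adjusted p-values of 0.0601 to 0.249 in DMSO and 0.0987 to 0.149 in JQ1. With spike-in scaling Jun was at -0.995 in DMSO (adjusted p = 0.00934) and -0.30 in JQ1.

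Fos had the opposite sign. In JQ1 it was called higher in KO, by 0.46 on the log2 scale (SE 0.133, adjusted p = 0.0472), although the libraries of the genotypes overlapped and the value was 0.34 with spike-in scaling (adjusted p = 1). The call was lost without replicate 1 (adjusted p = 0.133) or 2 (0.217) of WT, without replicate 1 (0.152) or 3 (0.0908) of KO, and when the 2 JQ1 groups were fitted alone (0.0869) or both KO replicate 3 libraries were left out (0.0955). In DMSO the change was 0.29 (95% confidence interval -0.01 to 0.59, adjusted p = 0.176), and -0.56 with spike-in scaling.

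Averaged over both treatments, a contrast chosen after these values were seen, Fos was higher in KO by 0.37 (SE 0.0964, adjusted p = 0.0106), Jun lower at -0.19 (SE 0.0428, adjusted p = 0.00488) and Fosl2 lower at -0.45 (SE 0.0697, adjusted p = 0.000441), beside 30.3% of all genes called. This average between genotypes counted the DMSO and JQ1 libraries of a replicate number as separate. Such libraries correlated within a genotype, so its SEs and adjusted p-values may be too small. The same average of JQ1 over DMSO gave 0.31 for Fos (adjusted p = 0.0102) and 0.29 for Junb (adjusted p = 0.00564), beside 68.0% of all genes called, and 0.06 and -0.01 with spike-in scaling. With spike-in scaling the averages between genotypes were -0.11 for Fos, -0.65 for Jun and -0.91 for Fosl2. Jund, Junb and Fosb were not called between genotypes, and the 95% confidence intervals were -0.12 to 0.22 for Jund, -0.13 to 0.36 for Junb and -0.59 to 1.01 for Fosb in DMSO. With spike-in scaling Jund (-0.77, adjusted p = 0.0239) and Junb (-0.72, adjusted p = 0.0337) were called lower in KO in DMSO. The ratio of Fos to Jun family reads was lower in KO (log2 difference -0.35, exact permutation test within treatment, two-sided, p = 0.01). With Fos and Fosb set against Jun and Junb the sign turned, to 0.52 (exact permutation p = 0.005), and with the mean log2 level of each family's genes it was -0.04 (exact permutation p = 0.675). These permutations of genotype also moved the DMSO and JQ1 libraries of a replicate number separately, so their p-values may be too small.

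The authors' deposited table of KO over WT gives a log2 fold change of -0.35 for Fosl2 (adjusted p = 1.18e-06) and -0.16 for Jun (adjusted p = 0.0465). In the authors' deposited table Fos (0.21, adjusted p = 0.175), Junb (0.10, adjusted p = 0.53) and Jund (0.06, adjusted p = 0.476) did not pass 0.05, and 23.8% of its 11880 genes with an adjusted p did.

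Whether the response to JQ1 differed between genotypes was tested as an interaction. The difference of the log2 changes, KO minus WT, was -0.11 for Fosl2 (95% confidence interval -0.41 to 0.19), -0.01 for Jun (-0.19 to 0.17) and -0.12 for Jund (-0.36 to 0.12). It was 0.17 for Fos (-0.25 to 0.58), -0.11 for Junb (-0.46 to 0.23) and 0.28 for Fosb (-0.86 to 1.42). edgeR called 0 of 6 members and 0 of 15433 genes (0.00%), and DESeq2 also called 0; at an unadjusted p under 0.05 edgeR had 355 genes (2.3%) and 0 members. The interval was narrowest for Jun and widest for Fosb. With spike-in scaling all 6 differences were positive, from 0.56 for Fosl2 to 0.90 for Fos, and none was called.

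**Figure D4:**
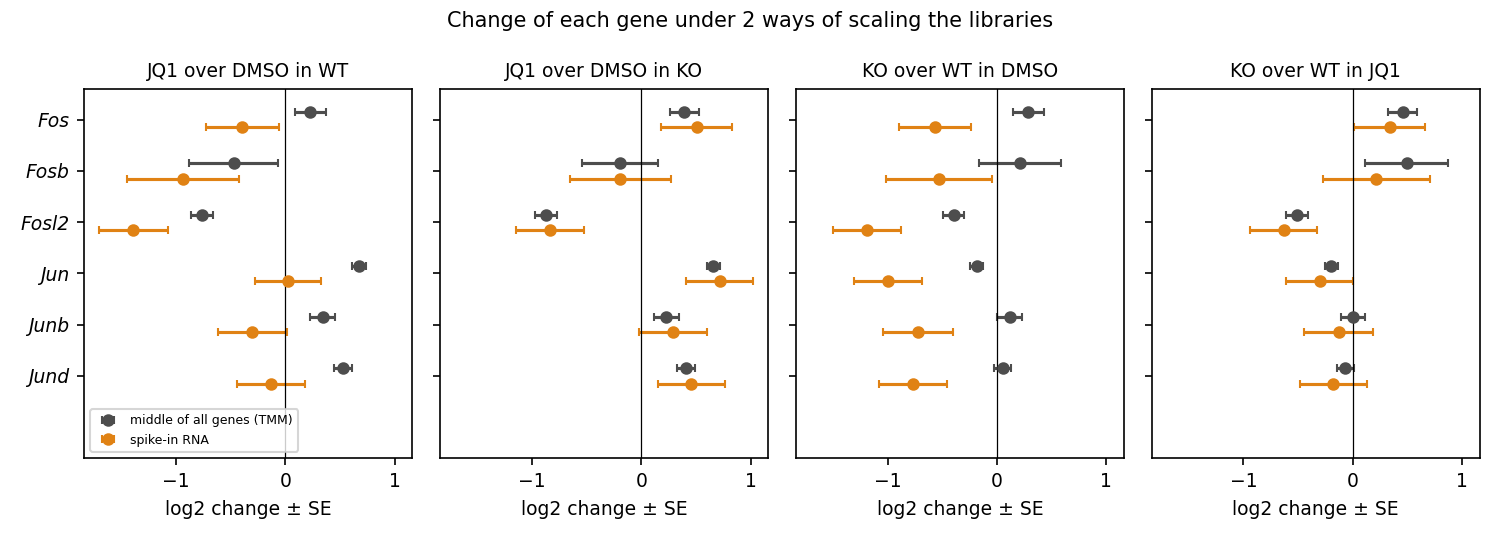
Log2 change ± SE of the 6 tested genes in the 4 comparisons, with libraries scaled to the middle of all genes (grey, TMM) or to spike-in RNA (orange). All genes, Fosl2 included, shift to lower values with spike-in scaling in JQ1 over DMSO in WT and in KO over WT in DMSO, and Fosl2 lies below 0 in all 4 comparisons under both scalings.

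The genes that act on AP-1 or with it were then read from the same fit. The MAP kinase cascade, which phosphorylates Jun and the factors on the Fos promoter, had calls in both directions. In JQ1 over DMSO in WT 12 of 21 genes were higher and 6 lower (0 and 7 with spike-in scaling), beside 25.9% and 29.3% of all genes (55.1% in either direction; in KO 27.7%, 29.4% and 57.1%, shares that apply to each list below), with a median log2 change of 0.17 beside -0.0043 for all genes. Mapk3, the gene of ERK1, fell by 0.68 on the log2 scale, and Rps6ka4 (the kinase MSK2) by 1.002, and Map2k5, the kinase of ERK5, by 0.62, while Map2k3, an activator of p38, rose by 0.81. In KO 11 were higher and 6 lower (0 and 1 with spike-in scaling).

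The MAP kinase phosphatases, which reverse that phosphorylation, gave 0 higher and 4 lower of 9 in WT and in KO (0 and 5, and 0 and 1, with spike-in scaling). Dusp2 changed by -1.33 in WT and -1.24 in KO, and Dusp5, which acts on nuclear ERK, by -0.93 and -1.02. Dusp4 and Dusp6 were called lower by smaller amounts, at -0.61 and -0.28 in WT.

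Of 18 factors that act on the Fos and Jun promoters, 5 were higher and 2 lower in WT and in KO (0 and 4, and 0 and 0, with spike-in scaling). Mkl1, a cofactor of SRF, changed by 0.39 in WT and Crem, a relative of CREB, by 0.49, while the ETS factor Elk3 changed by -0.79 and Stat3 by -0.26. Of 17 tested bZIP partners 1 was higher and 3 lower in WT, and 0 and 3 in KO (0 and 4, and 0 and 0, with spike-in scaling). Among these were Mafk (-0.76), a small Maf protein, Jdp2 (-0.39), a repressor that pairs with Jun, and Mafa (1.31, WT).

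Of 11 genes of AP-1 mRNA and protein turnover, 3 were higher and 3 lower in WT, and 4 and 2 in KO (0 and 3, and 0 and 0, with spike-in scaling). Usp28, a deubiquitinase, changed by 0.32 in WT, whereas Det1 (-0.43) and Fbxw7 (-0.22), both parts of ubiquitin ligases that degrade c-Jun, were lower.

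Of the genes described as AP-1 targets, those called under JQ1 in WT were lower. In WT 0 of 19 were higher and 9 lower, beside 25.9% and 29.3% of all genes, with a median log2 change of -0.62 beside -0.0043 for all genes, and in KO 2 were higher and 8 lower, with a median of -0.52 (0 and 12, and 0 and 4, with spike-in scaling). The peptide gene Cck changed by -1.28 in WT and -1.39 in KO, the cyclin Ccnd1 by -0.62 and -0.85, and the protease gene Plau by -1.59 and -1.93. Lif, a cytokine at 0.505 ± 0.0975 CPM in WT in DMSO (SD, n = 3), changed by -2.94 and -2.64.

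Of the other immediate early genes 7 of 24 were higher and 8 lower in WT and 7 and 7 in KO (0 and 9, and 1 and 1, with spike-in scaling), shares near those of all genes. Ier2 changed by 1.29 in WT and Egr1 by 0.96, whereas Arc, a regulator of AMPA receptor traffic, changed by -1.29 and the nuclear receptor Nr4a1 by -0.85. Between genotypes in DMSO 3 of these genes were higher and 3 lower in KO (0 and 16 with spike-in scaling), beside 7.21% and 7.76% of all genes. Egr1 (0.92) and Nr4a1 (0.46) were called higher and Nr4a2 (-0.89) and Homer1 (-0.26) lower. Of the AP-1 targets 4 were higher and 1 lower in that comparison (0 and 9 with spike-in scaling): among them Cck by 0.71, Vgf by 0.47 and Ccnd1 by 0.42, and Ezr at -0.46. The comparisons of genotype in DMSO and of JQ1 share their DMSO libraries.

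**Figure D5:**
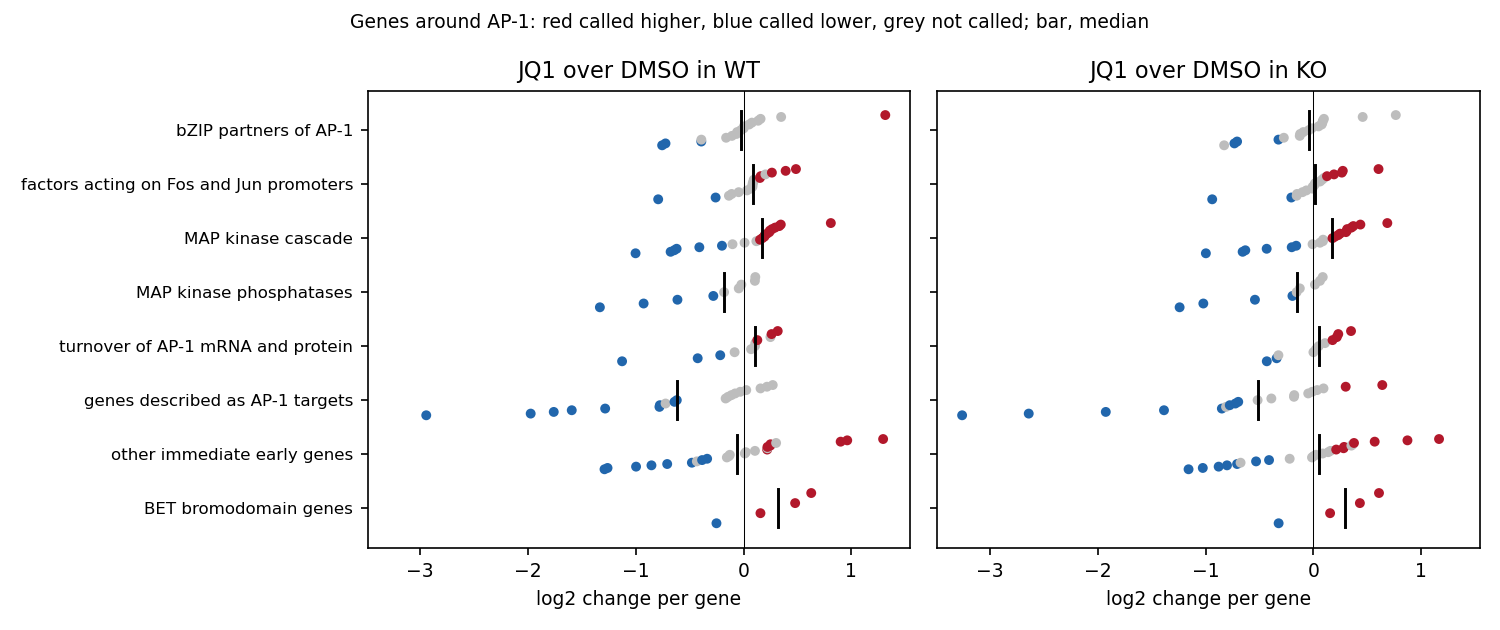
TMM-scaled log2 change of each tested gene in 8 lists around AP-1, for JQ1 over DMSO in WT (left) and KO (right); red points were called higher, blue lower and grey not called, and black bars are medians. AP-1 targets extend to the left, with medians of -0.62 and -0.52, and the phosphatases have no gene called higher; with spike-in scaling no gene of these lists is called higher in WT.

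The genes with the profile most like a member's over the 12 libraries were found by the root mean square gap of centred log2 CPM among 11378 genes whose mean reached 3 CPM. For Fosl2 these were 2610109H07Rik (gap 0.0935), 6330403A02Rik (0.112) and Csgalnact1 (0.113), where Fosl2's own root mean square deviation was 0.488. For Jun they were Tsc22d2 (0.0735), Pgm3 (0.0791) and Hs2st1 (0.0825), against 0.352. For Jund they were Hist3h2ba (0.0553), Lrrc68 (0.0749) and Cenpb (0.0754), against 0.253. Fos had no gene as near, its closest being Rabl2 (0.117), Chrm4 (0.122) and Apoa1bp (0.124), against 0.281. For Junb they were Chpf (0.0723), Actg1 (0.0827) and Lrrc8a (0.0827), against 0.194.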

How the data were processed

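Per the submitters' processing notes, the tools were TopHat2 2.1.0, SAMtools 0.1.19 and HTSeq 0.6.1, on the mm9 genome, with DESeq and DESeq2 (no version given). Libraries were TruSeq, sequenced as single reads of 75 bases, per the labels' protocols. The deposited table holds raw counts per gene and 92 ERCC spike-ins, whose amounts no source used here states. The authors' second table, used for description only, holds a mean signal, a log2 fold change, a Wald score and p-values per gene, per the file headers. The notes name DESeq2 among the tools, but no source used here states the model of this second table, so its fold changes may not be on the scale of those given here.

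Counts were fitted in R 4.3.3 with edgeR 4.0.16 (filterByExpr, minimum count 10, 15433 of 37310 genes kept; TMM; quasi-likelihood test; 1 mean per group over 12 libraries, 8 residual degrees of freedom). P-values were adjusted by Benjamini-Hochberg over all genes tested in each of 5 comparisons, with a call under 0.05. Confidence intervals are 95%. Alternatives were DESeq2 1.42.0, RLE or spike-in scaling, no filter, fits of 2 groups, replicate blocks and libraries left out. Up to 4 called genes of smallest adjusted p were named per list and comparison, and 3 genes of nearest profile per member called under JQ1. Some genes that this rule names are not reported here. The members and lists were chosen with earlier results of these data known.

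Replicate numbers pair the libraries within a genotype: deviations from group means correlated at 0.15 to 0.19 for equal numbers between WT DMSO and WT JQ1 and at 0.37 to 0.42 in KO. Between genotypes they did not (-0.24 to 0.15).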

Additional observations from a re-analysis of the deposited data

How the results depend on the processing

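Fosl2 kept its direction in the 4 comparisons of 2 groups under every alternative run, and Jun and Jund kept theirs under JQ1 except Jund in WT with spike-in scaling. In that setting Jun kept its sign only, at 0.0241 (SE 0.305, adjusted p = 0.945). The number of AP-1 genes called in KO over WT in DMSO, 1 as reported, was 2 with DESeq2, 4 with spike-in scaling, 2 with the replicate block, 2 without both KO replicate 3 libraries and 0 to 1 with single libraries left out. In JQ1 it was 2 as reported, and 3 with DESeq2, with the replicate block or with no filter on low counts. It was 0 with spike-in scaling and 1 in the fit of 2 groups. Without both KO replicate 3 libraries it was 1, and with single libraries left out 1 to 2. For JQ1 over DMSO the 4 genes called became 1 in WT and 0 in KO with spike-in scaling. The block within genotype, added after the data were seen, changed no call of a member, and with the plain replicate block the family ratio differences were -1.31 and -0.347 (exact permutation p = 0.0312 each). For genotype the plain block rests on a pairing of replicate numbers between WT and KO that these data did not show. The ratio between genotypes turned to 0.523 for Fos and Fosb against Jun and Junb and was -0.0382 as a mean of log2 levels. With spike-in scaling signs turned for Fos (-0.563), Fosb (-0.527), Junb (-0.721) and Jund (-0.767) in KO over WT in DMSO (Junb and Jund then called lower), for Junb (-0.13) in JQ1, for Fos (-0.393), Junb (-0.301) and Jund (-0.131) in JQ1 over DMSO in WT, and for Fosl2 (0.558), Jun (0.693), Junb (0.592) and Jund (0.589) in the difference of responses. Averaged over groups they turned for Fos (-0.113), Fosb (-0.156) and Junb (-0.425) between genotypes and Junb (-0.00525) under JQ1. Without both KO replicate 3 libraries Jund was at 0.0267 in KO over WT in JQ1 and 0.0286 averaged, and Jun at 0.0473 in the difference; without the filter the Jund average was 0.00375. With single libraries left out, uncalled values also crossed 0: they ran from -0.00905 to 0.549 for Fosb in KO over WT in DMSO, and in JQ1 from -0.0772 to 0.0839 for Junb and up to 0.0258 for Jund. The genotype average of Jund ran from -0.0367 to 0.0391, and the difference of responses from -0.0743 to 0.0274 for Jun and from -0.132 to 0.492 for Fosb. The cause was not tested. Over all genes, calls with spike-in scaling were 11994 (4 higher, 11990 lower) in place of 2311 for KO over WT in DMSO, 23 in place of 1384 in JQ1, 5854 (40 higher, 5814 lower) in place of 8507 (3990 and 4517) for JQ1 over DMSO in WT and 1520 in place of 8817 in KO. In KO over WT in JQ1 they were 630 in the fit of 2 groups and 2469 without both KO replicate 3 libraries. With 1 library left out, other than KO replicate 3, they were 885 to 1282 in DMSO and, without replicate 1 or 2 of either JQ1 group, 534 to 823 in JQ1; without KO replicate 3 they were 2540 and 2027, and without WT replicate 3 in JQ1 1227. Of the list counts under an alternative, 111 moved by over 1.5 times and 473 did not. Reads limit Fosb (6 to 27 per library) and Fosl1 (2 to 9), and the spread between 3 libraries limits the rest.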
